A study of Drosophila melanogaster with 5 samples.

Results

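Small annotated open reading frames (ORFs) are coding sequences under 300 nt, and they encode proteins of fewer than 100 amino acids. In animal cells many of them are subunits of the ribosome, of the mitochondrial respiratory chain, of protein translocases and of the spliceosome, and others are secreted peptides. A ribosome footprint from such an ORF is assigned to the codon in the ribosomal P-site, and an ORF is called translated when its P-sites follow the reading frame with a step of 1 codon. A short ORF offers few codons over which that step can be seen.

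The small ORFs described here were taken from 5 lists of translated ORFs in Drosophila melanogaster S2 cells, an embryo-derived line with blood-cell character. They are the ORFs in annotated coding sequences (CCDS ORFs) whose length, read from the transcript coordinates in their identifier, was under 300 nt. This rule found 912 ORF identifiers among 22869 CCDS identifiers and 23277 identifiers of all ORF types. They ended at 697 of the 7844 distinct genomic ends of CCDS ORFs, and an ORF is counted below once per such end. At 410 ends the longest form in any list stayed under 300 nt; these are called small ORFs. At the other 287 ends another list or another transcript gave a form of 300 nt or more, and the call under 300 nt is a shortened call of a longer ORF, of which there were 337 identifiers.

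Each list came from 1 sample, so there were no replicates and no differences between conditions could be tested. All intervals below are 95% intervals, and none covers variation between samples. Those of shares and numbers treat ORFs as independent draws, and those of medians reflect the spread among ORFs. Intervals of single-ORF ratios cover counting error of P-sites only. Lysates were footprinted overnight at 4 °C with A-RNaseI in Buffer 1 (Ambion enzyme, 150 mM NaCl) or with E-RNaseI in Buffer 2 (Thermo Fisher enzyme, 50 mM NaCl in the labels), and in either case cells had been given cycloheximide for 3 min before pelleting (+CHX) or not (-CHX). Cycloheximide, which arrests elongating ribosomes, was also in the wash and lysis of every sample, so -CHX refers to the step before pelleting only. The buffers also differed in Tris-HCl, which was 50 mM for Buffer 1 against 100 mM for Buffer 2. For Buffer 2 the paper states a lower NaCl concentration than the labels do. RNase, its supplier and the buffer changed together and cannot be told apart. The fifth list came from deeper sequencing of E-RNaseI, Buffer 2, -CHX. Values for the lists are given in the order A-RNaseI +CHX, E-RNaseI +CHX, A-RNaseI -CHX, E-RNaseI -CHX and deep.

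P-site totals over all CCDS ORFs were 900065, 1947092, 610500, 617755 and 9139620, and lists were scaled to each other by the 3788 longer ORFs found in all 5. Depth of a list below means its P-sites on these longer ORFs. The paper describes subsampling to a similar read number per sample, so depth need not reflect the amount of sequencing in the standard lists. The deep list and the standard E-RNaseI -CHX list differed by no more than sampling noise: over 3057 longer ORFs with an identical call the mean chi-square per ORF was 1.04, against 3.66 to 6.39 in the other comparisons of lists. They were therefore counted as 1 sample and never as replicates. Of 10 genes fixed as markers of S2 cells, 3 to 4 had an ORF in a standard list and 8 in the deep list, while no ORF of 4 neuronal or 3 fat body markers was found; Ppn and NimC1 of the S2 markers were in no list. Of the other marker genes, the muscle markers Mef2 and Tm1, the germ line marker bam and the follicle cell marker Fas3 were found in at least 1 list.

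The 410 small ORFs fell into 2 kinds by position, a split made after the lists were examined. For 232, no exon shared a base on the same strand with a longer CCDS ORF, and these are called separate small ORFs. The other 178 overlapped a longer ORF, so that their P-sites could also have been counted for it; 101 of them began at a start codon of the overlapped ORF and 160 lay in the span of the same single gene. Separate small ORFs had a median length of 229.5 nt (middle 50%, 174 to 258.75) and overlapping ones of 141 nt. Of the separate ORFs 41.4% were in a single exon, against 11.6% of 7434 longer ORFs, and no small ORF had more than 4 exons. A single protein-coding gene could be assigned by position to 175 of the separate small ORFs, at 164 genes. Of these ORFs, 74 had a gene known only by a CG number. Overlap of separate small ORFs with each other was not considered in the split. Among the 164 genes, 10 held more than 1 separate small ORF, at 21 ends. Each end was counted on its own, although ends of the same gene can share P-sites.

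The number of small ORFs was lowest with A-RNaseI, -CHX and highest in the deep list. The lists held 134, 228, 105, 144 and 339 small ORFs, of which 98, 161, 81, 121 and 214 were separate. Overlapping small ORFs were 36, 67, 24, 23 and 125, and they recurred less: 7 of 178 were in all 5 lists and 120 in a single list, against 54 (23.3%) and 65 (28.0%) of the 232 separate ORFs. Of longer ORFs 51.0% were in all 5 lists and 8.10% in a single list. Of the 65 separate ORFs in a single list, 51 were in the deep list and 11 in E-RNaseI +CHX.

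**Figure D1:**
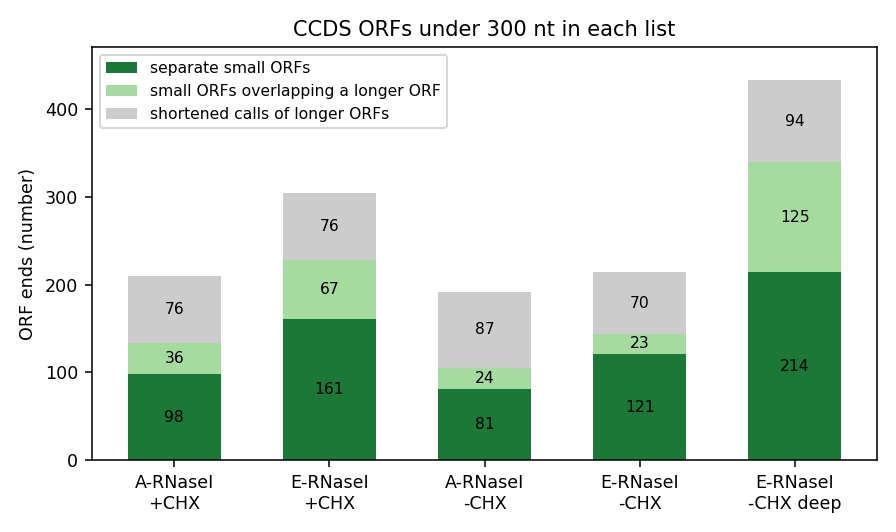
Number of ORF ends with a CCDS call under 300 nt in each list, split into separate small ORFs, small ORFs that overlap a longer ORF, and shortened calls of longer ORFs. Separate small ORFs ranged from 81 (A-RNaseI -CHX) to 214 (deep), while shortened calls stayed between 70 and 94 ends.

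In the absence of cycloheximide the lists had nearly the same depth, and E-RNaseI gave 121 separate small ORFs against 81 with A-RNaseI, a ratio of 1.49 (1.13 to 1.98). Of these ORFs 70 were in both lists, 51 only with E-RNaseI and 11 only with A-RNaseI. Intervals of such ratios take the 2 numbers as independent and ignore this sharing. For longer ORFs the ratio was 1.26 (1.21 to 1.31), and the difference from the small ones was not tested. In its presence the ratio was 1.64 (1.28 to 2.11) against 1.32 (1.27 to 1.37) for longer ORFs, with a larger P-site total in the E-RNaseI list. Most separate small ORFs of the A-RNaseI list were also found with E-RNaseI: 92 of 98 +CHX (93.9%, 87.3 to 97.2) and 70 of 81 -CHX (86.4%, 77.3 to 92.2). For longer ORFs these shares were 98.3% and 94.1%, a difference, small minus longer, of -4.45 percentage points (-11.1 to -1.14) and -7.70 (-16.8 to -1.83). In the other direction 92 of 161 (57.1%) and 70 of 121 (57.9%) were found with A-RNaseI, against 74.7% and 74.8% of longer ORFs.

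Among small ORFs in all 5 lists, Nplp2, neuropeptide-like precursor 2, had the most P-sites. It is 258 nt long (chromosome 3L, 3 exons), with 1546, 3512, 702, 850 and 12036 P-sites. Scaled to 1000000 P-sites on common longer ORFs these were 1880, 2080, 1218, 1552 and 1518, so its level was highest in the 2 lists with cycloheximide. P-sites reflect both the amount of an mRNA and the ribosomes on it, which cannot be told apart here. Its ratio with over without cycloheximide was 1.34 (1.24 to 1.45) with E-RNaseI and 1.54 (1.41 to 1.69) with A-RNaseI.

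Among the 54 separate small ORFs in all 5 lists, the median P-site density was 67.4, 149.2, 44.3, 43.6 and 678 per 100 nt, against 6.20, 12.02, 4.38, 4.10 and 54.1 for the 3788 longer ORFs in all lists. No ORF in any list had fewer than 6 P-sites, and such a floor keeps a short ORF out unless its density is high; its part in the gap was not tested. Within these 54 ORFs the deep density ran from 84.5 P-sites per 100 nt in CG34228 to 4665 in Nplp2.

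**Figure D2:**
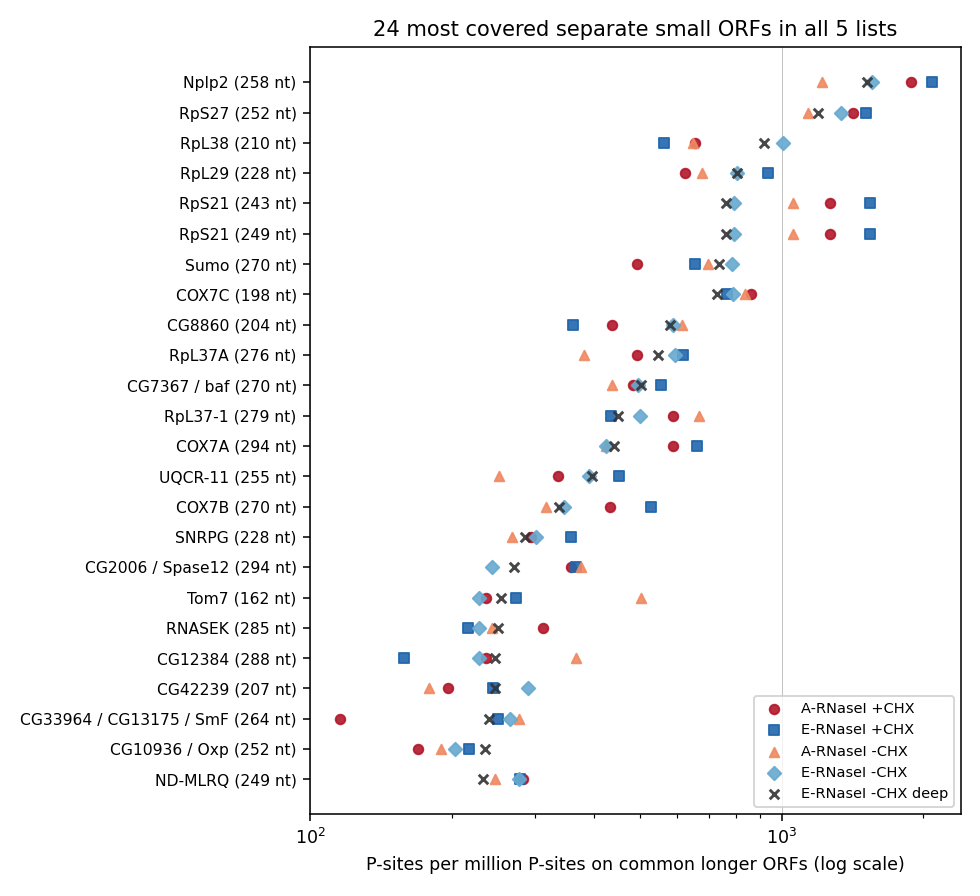
P-sites of the 24 separate small ORFs with the most P-sites in the deep list among those in all 5 lists, scaled to 1000000 P-sites on common longer ORFs (log axis), 1 marker per list. Deep and standard E-RNaseI -CHX markers lie together, Nplp2 is at 1218 to 2080, and Tom7 stands apart in A-RNaseI -CHX at 503.

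Cytosolic ribosomal proteins held most of the highest values. Small ORFs were found for 11 of their 92 genes in the gene table, and 10 of the 12 ORFs were separate. Over the 13962 protein-coding genes in that table, 312 had a small ORF in their span alone. RpS27, of the small subunit (252 nt), had 1166, 2546, 657, 732 and 9490 P-sites. RpL38 (210 nt, 1 exon) had 540, 951, 373, 552 and 7260, and RpL29 (228 nt) had 512, 1581, 390, 441 and 6364. RpS21 was listed with 2 alternative ends of 243 and 249 nt that had 1040, 2596, 610 and 434 P-sites each in the standard lists, equal at both ends, so these P-sites were not separable. A 177-nt ORF in RpS3A and a 171-nt ORF in RpL10Ab overlapped longer ORFs, and the latter had 1191 and 2023 P-sites in the +CHX lists and was in no other list. Of the group, 8 ORFs were in all 5 lists. The median log2 ratio was 0.17 (n = 11) for E-RNaseI over A-RNaseI +CHX and 0.24 (n = 8) -CHX, with only RpS28b past 2-fold in any of the 4 comparisons of standard lists.

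RpL39, a large-subunit protein of 153 nt (chromosome 2R, 24061947 to 24062389, 3 exons), was in 2 lists only. It had 544 P-sites with A-RNaseI -CHX and 8852 in the deep list, the third highest count of a separate small ORF there. Its densities of 356 and 5786 P-sites per 100 nt were above those of Nplp2 in the same lists, 272 and 4665. From the deep count, 918 P-sites would be expected with A-RNaseI +CHX, 1885 with E-RNaseI +CHX and 612 with E-RNaseI -CHX, and no CCDS ORF of the gene was in those lists. RpS28b (195 nt, chromosome X, 9554711 to 9554906), of the small subunit, had 307, 1471, 221 and 3129 P-sites in A-RNaseI +CHX, E-RNaseI +CHX, E-RNaseI -CHX and deep and was missing from A-RNaseI -CHX, where 227 were expected.

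Subunits of the respiratory chain and of ATP synthase were the largest group. Of 102 genes, 16 had a small ORF that lay in their span alone, 19 ORFs in all, of which 18 were separate and 9 were in all 5 lists. COX7C, a cytochrome c oxidase subunit of 198 nt, had 710, 1295, 482, 431 and 5796 P-sites. COX7A (294 nt) had 483, 1118, 244, 232 and 3491, and UQCR-11, of complex III, had 276, 764, 145, 214 and 3134 at its 255-nt form. Other members were in few lists. The 183-nt form of sun, the epsilon subunit of ATP synthase (chromosome X, 15847982 to 15849163), had 1192, 218 and 3010 P-sites with E-RNaseI +CHX, E-RNaseI -CHX and deep and was in neither A-RNaseI list. The complex III subunit ox (165 nt) had 100 and 1440 P-sites in the 2 lists of E-RNaseI -CHX and was in no other. The cytochrome c oxidase subunit cype (231 nt) had 52, 98 and 1231 in the 3 lists without cycloheximide and was in neither list with it. No ORF of this gene list passed 2-fold in any of the 4 comparisons where they were in both lists, and the median log2 ratio was 0.21 (n = 15) with over without cycloheximide for E-RNaseI and 0.19 (n = 9) for A-RNaseI. NdufA3 of complex I, which is not in the gene list, was at 0.207 (0.131 to 0.319) for E-RNaseI over A-RNaseI +CHX, with forms of 126 and 231 nt.

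Of the genes listed as mitochondrial import and Cx9C assembly factors, 5 had a small ORF that lay in their span alone (Tom7, Tim9a, Tim8, Cox17 and Chchd2). Tom7, of the outer membrane translocase (162 nt, chromosome 2R), had 194, 461, 290, 125 and 2010 P-sites. Scaled, these were 236, 273, 503, 228 and 254, so the A-RNaseI -CHX list was high and the other 4 lay together. Its ratio with over without cycloheximide was 0.469 (0.389 to 0.564) with A-RNaseI and 1.20 (0.980 to 1.47) with E-RNaseI. A 156-nt ORF in mge, which encodes the import receptor Tom22 and is not in that gene list, overlapped a longer ORF and had 33, 36, 39, 14 and 275 P-sites. Its E-RNaseI over A-RNaseI ratio was 0.532 (0.322 to 0.880) +CHX and 0.378 (0.189 to 0.711) -CHX. The +CHX ratio sets a form of 111 nt with E-RNaseI against 156 nt with A-RNaseI, while both -CHX forms were 156 nt. Tim9a and Tim8, chaperones of the intermembrane space, had 761 and 586 P-sites in the deep list, and Tim8 was in neither A-RNaseI list. Mitochondrial ribosomal proteins had 6 small ORFs of 73 genes, led by mRpL34 with 1038 and mRpS21 with 749 P-sites in the deep list.

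Small nuclear and signalling proteins followed. SNRPG, the SmG protein of the spliceosome (228 nt), had 242, 602, 154, 165 and 2261 P-sites, and ORFs in the spans that SmF and SmE share with other genes had 1898 and 1084 in the deep list; these 3 were in all 5 lists. Sumo, the ubiquitin-like modifier (270 nt, 1 exon), had 406, 1106, 403, 429 and 5846. Ubiquitin-like and ubiquitin pathway genes had 6 small ORFs, all in both standard E-RNaseI lists, 3 with A-RNaseI +CHX and 2 with A-RNaseI -CHX. Of all separate small ORFs found with E-RNaseI, 57.1% +CHX and 57.9% -CHX were also found with A-RNaseI. In this group ubl, Nedd8 and Sem1 were each missing from 1 A-RNaseI list. Polr2K and Polr2L, subunits shared by RNA polymerases, had 1503 and 1396 P-sites in the deep list. HSPC300, of the actin-regulating WAVE complex (228 nt), was missing from A-RNaseI -CHX and had 259, 873, 208 and 3007 P-sites in the other 4 lists, and the dynein light chains ctp and robl had 1253 and 987 in the deep list.

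In the secretory pathway, Sec61gamma of the translocon (204 nt) was missing from A-RNaseI -CHX and had 260, 477, 167 and 2266 P-sites in the other 4 lists, while CG8860, also of 204 nt, was in all lists with 360, 609, 355, 323 and 4588. Srp9, of the signal recognition particle, had 569 P-sites in the deep list, and kud, a subunit of oligosaccharyltransferase, had 1240. VhaM9.7-b, of the vacuolar ATPase, was found only in the 2 lists of E-RNaseI -CHX, with 25 and 438.

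Small ORFs were found for 2 of 42 immune peptide genes and 2 of 6 metallothionein genes, against 312 of all 13962 protein-coding genes. Drs, the antifungal peptide drosomycin (210 nt), had 46 P-sites with A-RNaseI +CHX and 710 in the deep list, and CecA1, a cecropin, had 10 with E-RNaseI +CHX. Of 6 metallothionein genes, MtnA was found in the deep list with 30 P-sites and MtnF with 29 there and 9 in E-RNaseI +CHX. No other gene of the 42 immune peptides had a small ORF. Of the known small peptides in the list, only hemo had an ORF, of 177 nt in a span shared with CG43210, with 10 P-sites in E-RNaseI +CHX and 12 in deep.

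The shortest ORF with a single gene was in 1 list with few P-sites. It was a 12-nt ORF in UQCR-11 with 7 P-sites in A-RNaseI -CHX. This ORF lay inside the span of the 255-nt ORF on the same transcript. A 15-nt ORF in Stam that overlapped a longer ORF had 7 P-sites, in E-RNaseI +CHX only. The shortest ORFs in all 5 lists were Neb-cGP (144 nt) with 73, 168, 36, 44 and 596 P-sites, mge and Tom7. At 90 nt or less there were 57 overlapping and 16 separate small ORFs. Some of these had more P-sites. An overlapping 24-nt ORF in CG11857 had 479 in the deep list alone. A separate 48-nt ORF in CG13807 had 64, 28, 42 and 560 in E-RNaseI +CHX, A-RNaseI -CHX, E-RNaseI -CHX and deep.

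Missing calls were more frequent among separate small ORFs than among longer ones. The expected number was the deep count scaled to the depth of the list, and ORFs with 20 or more were considered; this measure was chosen after the lists were examined. Of separate small ORFs, A-RNaseI +CHX lacked 41 of 128 (32.03%, 24.6 to 40.5) and A-RNaseI -CHX lacked 43 of 109 (39.4%, 30.8 to 48.8). E-RNaseI +CHX lacked 20 of 146 (13.7%, 9.05 to 20.2) and E-RNaseI -CHX lacked 8 of 104 (7.69%, 3.95 to 14.4). Of longer ORFs the 4 lists lacked 13.1% (A-RNaseI +CHX), 2.06% (E-RNaseI +CHX), 15.4% (A-RNaseI -CHX) and 1.85% (E-RNaseI -CHX). The difference, small minus longer, was 18.9 percentage points (11.4 to 27.4), 11.6 (6.97 to 18.2), 24.03 (15.3 to 33.5) and 5.84 (2.07 to 12.6) in the 4 standard lists. Expected P-sites were not matched between the classes beyond the minimum of 20, so each list was also split into 4 ranges of expected P-sites. The share was higher for separate small ORFs in all 16 combinations of list and range, and in 13 of them the intervals did not overlap. The exceptions were 20 to 50 expected P-sites with E-RNaseI +CHX and 50 to 100 and 100 to 200 with E-RNaseI -CHX. At 200 or more expected P-sites the 4 lists lacked 4 of 31, 5 of 60, 6 of 22 and 1 of 20 separate small ORFs, against 1.66%, 0.741%, 1.76% and 0.157% of longer ORFs. The deep list comes from E-RNaseI -CHX, the same condition as 1 of the 4 lists. With the expectation taken instead from the other RNase in the same cycloheximide state, A-RNaseI lacked 27.6% +CHX and 35.6% -CHX of separate small ORFs, and E-RNaseI lacked 6.19% and 6.15%. Of longer ORFs A-RNaseI then lacked 13.1% and 15%, and E-RNaseI 1.20% and 1.53%.

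**Figure D3:**
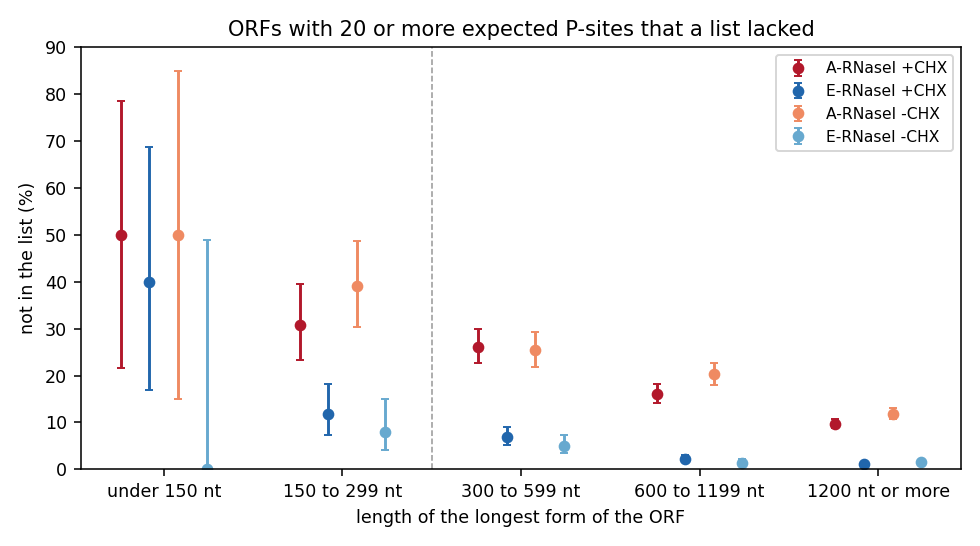
Share of ORFs with 20 or more expected P-sites that were absent from each standard list, by length of the longest form, with 95% Wilson intervals; ORFs under 300 nt are separate small ORFs. From 150 to 299 nt the A-RNaseI lists lacked 30.8% and 39.0%, and the E-RNaseI lists lacked 11.8% and 8%.

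The share missing also fell with length among longer ORFs, except between the longest 2 classes of E-RNaseI -CHX. With A-RNaseI +CHX it was 30.8% (23.3 to 39.6) at 150 to 299 nt, 26.1% (22.8 to 29.8) at 300 to 599 nt, 16.0% at 600 to 1199 nt and 9.72% at 1200 nt or more. The intervals of the shorter 2 classes overlap. With A-RNaseI -CHX the same classes lacked 39.0% (30.3 to 48.6), 25.4% (21.8 to 29.4), 20.3% and 11.9%, and there the shorter 2 intervals do not overlap. With E-RNaseI they lacked 11.8%, 6.94%, 2.16% and 1.14% +CHX. Without cycloheximide E-RNaseI lacked 8%, 5.07% and 1.32% in the shorter 3 classes and 43 of 2866 ORFs at 1200 nt or more. Under 150 nt, 4 to 10 ORFs per list were expected, too few to order.

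Of 109 separate small ORFs expected in both A-RNaseI lists, 53 were in both, 22 were missing from -CHX only, 13 from +CHX only, and 21 were in neither. Of those 21, 12 were in both standard E-RNaseI lists. Besides sun, these included Nop10, of the H/ACA snoRNP that guides pseudouridylation (192 nt, chromosome 2R), with 559, 206 and 2794 P-sites in E-RNaseI +CHX, E-RNaseI -CHX and deep, against 290 and 203 expected with A-RNaseI. UQCR-6.4, of complex III (171 nt), had 447, 92 and 1212 P-sites in the same 3 lists. CG34200 (156 nt), Ggamma1, a G protein gamma subunit (210 nt), and UQCR-Q (267 nt) were missing from A-RNaseI -CHX only, with 213, 125 and 210 P-sites expected there. Nop10, UQCR-6.4, CG34200, Ggamma1 and UQCR-Q were chosen after their values were seen. Among ribosomal proteins 1 or 2 of 10 expected separate small ORFs were missing from each standard list. Among respiratory chain subunits 6 of 16, 3 of 17, 7 of 16 and 1 of 16 were missing. These are for A-RNaseI +CHX, E-RNaseI +CHX, A-RNaseI -CHX and E-RNaseI -CHX. Of all separate small ORFs the same lists lacked 41 of 128, 20 of 146, 43 of 109 and 8 of 104. A difference between the respiratory chain and all separate small ORFs was not tested. In each A-RNaseI list the respiratory count includes sun at 2 ends and UQCR-11 at its 105-nt ORF.

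The lists with and without cycloheximide shared fewer of their small ORFs than of their longer ones. Of separate small ORFs in E-RNaseI -CHX, 108 of 121 (89.3%, 82.5 to 93.6) were also in E-RNaseI +CHX, against 98.3% of 5647 longer ORFs, a difference of -9.01 percentage points (-15.8 to -4.64). With all 144 small ORFs the share was 87.5% (81.1 to 91.9). For A-RNaseI the shares were 75.3% (64.9 to 83.4) of 81 separate small ORFs and 87.7% of longer ones, a difference of -12.4 points (-22.9 to -4.27). Small ORFs in the +CHX list also exceeded those in the -CHX list in number, by 1.33 (1.05 to 1.68) for separate ORFs with E-RNaseI and 1.21 (0.902 to 1.62) with A-RNaseI. These intervals again ignore the ORFs found in both lists. The +CHX lists had the larger P-site totals.

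Median P-site ratios of separate small ORFs between lists were near 1. The median log2 ratio of E-RNaseI over A-RNaseI was 0.17 (0.06 to 0.27, n = 92) +CHX and 0.16 (0.04 to 0.25, n = 70) -CHX, and that of longer ORFs was 0.00 in either state. With over without cycloheximide the medians were 0.14 (-0.04 to 0.24, n = 108) with E-RNaseI and 0.08 (-0.07 to 0.25, n = 61) with A-RNaseI, against 0.03 for longer ORFs in both. Single ORFs spread around these medians with an SD of the log2 ratio of 0.50, 0.50, 0.70 and 0.55 in the same 4 comparisons, against 0.55, 0.55, 0.53 and 0.60 for longer ORFs. Over small ORFs with an identical call the mean chi-square per ORF was 6.74, 6.45, 11.7 and 7.68, against 6.39, 3.66, 4.88 and 4.72 for longer ones, so counting error does not cover the spread. ORFs without a call in either list do not enter these medians. Counts were scaled by longer ORFs common to all lists, so the medians of longer ORFs are not an independent reference. With scaling by all P-sites, E-RNaseI over A-RNaseI medians of all small ORFs were 0.09 +CHX and 0.07 -CHX, instead of 0.17 and 0.16.

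Few small ORFs passed a ratio of 2. In E-RNaseI over A-RNaseI +CHX, 4 of 105 small ORFs were at least 2-fold higher and 4 lower, where 4.31% and 2.33% of all ORFs compared were. In the same comparison -CHX, 3 of 79 were higher and 2 lower, against 4.21% and 2.79%. With over without cycloheximide, 9 of 126 were higher and 5 lower with E-RNaseI (all ORFs, 3.88% and 2.43%), and 4 of 69 were higher and 2 lower with A-RNaseI (5.39% and 3.85%). Between the deep and the standard list none of 139 was higher and 1 was lower (1.78% and 0.640%). These shares are near the background of all ORFs, except that 7.14% against 3.88% were higher with cycloheximide in E-RNaseI, on 9 ORFs.

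**Figure D4:**
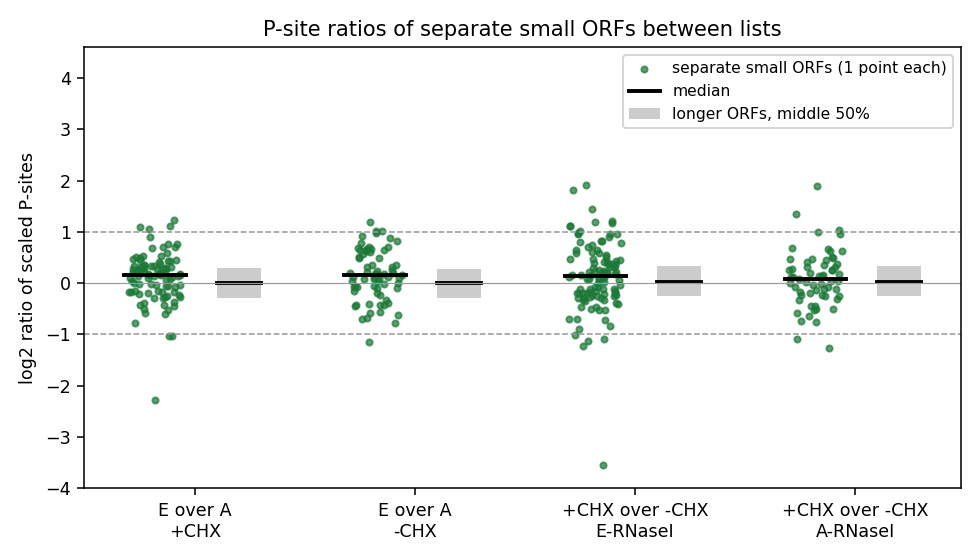
Log2 ratio of scaled P-sites between lists for separate small ORFs (points, with the median as a black bar) in the 4 comparisons of standard lists, beside the middle 50% and the median of longer ORFs. Medians were 0.17, 0.16, 0.14 and 0.08, and dashed lines mark 2-fold.

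Several of the ORFs with the largest ratios were called in forms of different length. CG31360 (294 nt) had 54, 64 and 880 P-sites in A-RNaseI -CHX, E-RNaseI -CHX and deep, and 17 with E-RNaseI +CHX at a form of 135 nt, a ratio with over without cycloheximide of 0.0862 (0.0473 to 0.149). NdufA3, of complex I (231 nt), had 73 P-sites with A-RNaseI +CHX and 31 with E-RNaseI +CHX at a form of 126 nt. Polr2L had 49 P-sites with A-RNaseI -CHX at a form of 60 nt and 144 with A-RNaseI +CHX at 201 nt.

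Others differed at the same or a similar length. CG34163 (261 nt in both lists) had 41 P-sites with A-RNaseI +CHX and 174 with E-RNaseI +CHX, a ratio of 2.07 (1.46 to 2.98). CG13751 (231 nt) had 131, 219, 36, 26 and 490 P-sites, and its ratio with over without cycloheximide was 2.73 (1.82 to 4.28) with E-RNaseI and 2.55 (1.75 to 3.796) with A-RNaseI, where its -CHX form was 204 nt. A 72-nt ORF in Arf6, a small GTPase gene, was 3.79-fold higher with cycloheximide with E-RNaseI (2.37 to 6.42). A 108-nt ORF of the same gene began at the same position and had 112, 245 and 60 P-sites in A-RNaseI +CHX, E-RNaseI +CHX and E-RNaseI -CHX, so the ORFs share P-sites, and its ratio was 1.33 (0.995 to 1.79). A 105-nt ORF in CG42336 was 3.71-fold higher with A-RNaseI (2.19 to 6.64). CG9344 (237 nt) was lower with cycloheximide at 0.458 (0.336 to 0.627) with E-RNaseI, and CG6770 (207 nt) at 0.428 (0.288 to 0.639). RpS28b was higher with E-RNaseI than A-RNaseI +CHX at 2.33 (2.06 to 2.65), with a form of 165 nt in the A-RNaseI list against 195 nt. CG33170 (213 nt) was higher with E-RNaseI at 2.02 (1.21 to 3.45) -CHX, and Sf3b5, a splicing factor subunit, was at 1.88 (1.12 to 3.25). CG12384 (288 nt) was lower with E-RNaseI at 0.671 (0.555 to 0.811) +CHX and 0.623 (0.495 to 0.781) -CHX. Spans of more than 1 gene are not among these ORFs. In such spans, the 228-nt ORF of CG42497 and Tim10 had a ratio with over without cycloheximide of 3.52 (2.22 to 5.88) with E-RNaseI, at a form of 204 nt in both lists. The ORF in the span that SmF shares had 0.416 (0.319 to 0.539) with A-RNaseI, where its +CHX form was 141 nt and its -CHX form 252 nt.

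Starts of small ORFs were called alike in different lists more often than those of longer ORFs. Among separate small ORFs in both lists, 87 of 108 (80.6%, 72.1 to 86.9) had a common start with and without cycloheximide in E-RNaseI, against 55.6% of 5549 longer ORFs, a difference of 25 percentage points (16.4 to 31.5). With A-RNaseI it was 49 of 61 (80.3%) against 48.0%, a difference of 32.3 points (20.5 to 40.5). Between RNases it was 81.5% +CHX and 78.6% -CHX, against 58.8% and 53.0%. The share fell with length among longer ORFs too: with and without cycloheximide in E-RNaseI it was 79.4% (70.6 to 86.1) at 150 to 299 nt, 76.2% (72.6 to 79.5) at 300 to 599 nt, 66.3% at 600 to 1199 nt and 48.0% at 1200 nt or more. The intervals of the shorter 2 classes overlap here and in the other 3 comparisons. Where starts differed with E-RNaseI, the +CHX start was the more upstream in 15 of 21 separate small ORFs, and the start in the deep list was upstream of that in the standard list in 21 of 21 that differed. Of longer ORFs with different starts, the +CHX start was the more upstream in 1901 of 2466, and the deep start was the more downstream in 348 of 2530. Relative to the standard E-RNaseI -CHX list, depth, as P-sites on common longer ORFs, was 3.08 for E-RNaseI +CHX and 14.5 for the deep list. The paper's rule for choosing a start requires a minimum number of P-sites before the next ATG. Shifts due to depth and to cycloheximide were therefore not separated, and the part of each was not tested.

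**Figure D5:**
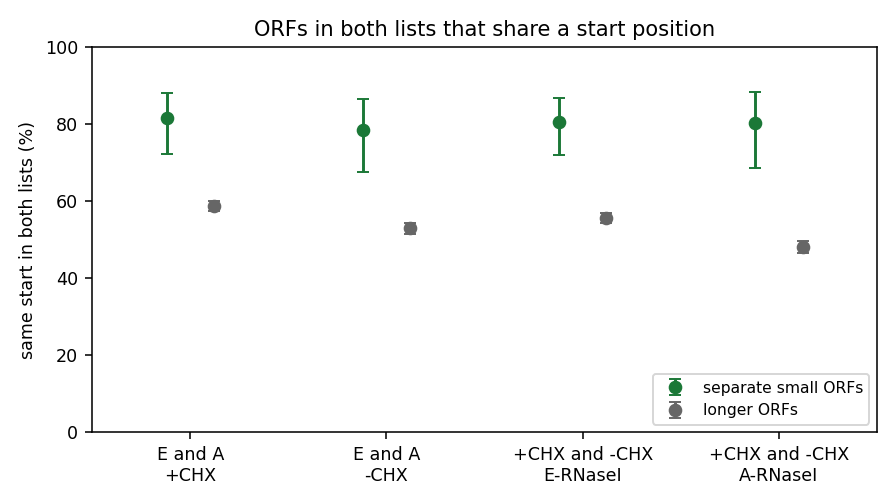
Share of ORFs in both lists that had a start position in common, with 95% Wilson intervals, for separate small ORFs and longer ORFs in the 4 comparisons of standard lists. Small ORFs were at 78.6% to 81.5% and longer ORFs at 48.0% to 58.8%.

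Of the 61 small ORFs in all 5 lists, 40 had a start common to all 5, as had 1158 of 3788 longer ORFs. Of 54 with a single gene, 18 had none. RpL29 was called at 228 nt in 4 lists and at 126 nt with E-RNaseI -CHX, and RpL37A at 276 nt in 4 lists and 192 nt with A-RNaseI -CHX. SNRPG was called at 228, 192, 177, 192 and 228 nt, and CG6610 at 273, 234, 165, 183 and 273 nt. COX8 and CG32276 were called shorter in both -CHX standard lists (153 against 204 nt and 174 against 192 nt). COX7A was called at 267 nt in both standard E-RNaseI lists and at 294 nt in the other 3. kud was called at 225 nt with E-RNaseI -CHX and at 234 nt elsewhere, and REPTOR-BP was 282 nt in the deep list and 252 nt in all others.

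Small ORFs shared transcripts with other called ORFs more often than longer ORFs did. This held for 64 of 232 separate small ORFs (27.6%, 22.2 to 33.7), against 9.11% of longer ORFs (8.47 to 9.78). Another longer ORF was on the transcript for 48 of the 64 and another small ORF for 20. Ordered by their ends, 50 lay upstream of the other ORF. Pairs of small ORFs included sloth1 and sloth2, which encode paralogous mitochondrial proteins from 1 transcript, at 237 and 183 nt. The upstream ORF had 30, 36 and 56 P-sites in A-RNaseI +CHX, E-RNaseI +CHX and deep, and the downstream one 11 and 29 in the latter 2. In the span shared by CG42497 and Tim10 the upstream 195-nt ORF had 136, 34 and 517 P-sites in E-RNaseI +CHX, E-RNaseI -CHX and deep, and the downstream 228-nt ORF had 75, 217, 34, 20 and 347 in the 5 lists. Among ORFs in 1 list alone, a 210-nt ORF on a betaTub97EF transcript had 903 P-sites in the deep list, and the 171-nt form of sun had 1595.

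Shortened calls were of a different kind. The lists held 82, 83, 90, 75 and 108 shortened identifiers, at 76, 76, 87, 70 and 94 ORF ends, and their median P-sites were 24, 22, 20, 23 and 43. At 57, 37, 67, 49 and 20 ends no form of 300 nt or more was in that list, which is 1.12% (0.866 to 1.45), 0.553% (0.401 to 0.761), 1.49% (1.18 to 1.89), 0.868% (0.657 to 1.15) and 0.271% (0.176 to 0.419) of its longer ORFs. The A-RNaseI -CHX list had the highest such share and the deep list the lowest. For 235 of the 337 identifiers the same transcript was called at 300 nt or more in another list, and for 102 the longer form was on another transcript. At 215 of 287 ends the shortened call was in a single list and at 7 in all 5.

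The largest losses of length were in genes for which a longer form was called in the same list on another transcript. They were tou, a chromatin remodelling protein (282 against 9393 nt, with 16 P-sites in E-RNaseI +CHX and 110 in deep), pyd, a junction protein (213 nt with 6 P-sites in E-RNaseI +CHX and 195 nt with 38 in deep, against 7005), and the corepressor Sin3A (264 against 6195 nt, with 19 and 50 P-sites in the same 2 lists). ZAP3 (246 against 5655 nt) and the carboxypeptidase svr (162 against 4311 nt) were called short in the deep list only, with 40 and 96 P-sites. A further condition, set after the lists were examined, was that the list held no form of 300 nt or more. The most shortened calls of this kind had 6 to 28 P-sites. DCP2, the mRNA decapping enzyme, was called at 2376 nt in E-RNaseI +CHX and deep (110 and 438 P-sites) and at 210 nt with 11 P-sites in A-RNaseI -CHX. The RNA-binding protein gene msi was called at 1902 nt in the same 2 lists and at 153 nt with 6 P-sites in A-RNaseI -CHX. CG7326 was called at 1446 nt in 2 lists and at 207 nt with 7 P-sites in A-RNaseI +CHX. CG31145 was called at 2151 nt in E-RNaseI +CHX and at 201 nt with 20 P-sites in the deep list. In A-RNaseI -CHX fdl was called at 231 nt with 28 P-sites, against 2019 nt in A-RNaseI +CHX. The median of shortened calls in A-RNaseI -CHX was 20 P-sites. The shortened calls with the most P-sites were forms listed beside the longer one. Atg8a, the autophagy ubiquitin-like protein, had 3777 P-sites at 282 nt and 4262 at 363 nt in the deep list. RpS9 had 2669 at 195 nt and 12686 at 585 nt, and ND-15, of complex I, had 1412 at 210 nt and 1722 at 303 nt.

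Small ORFs just inside the 300-nt limit lay near ORFs just outside it. COX7A (294 nt) and cib, an actin-binding protein (overlapping), had 3491 and 1506 P-sites in the deep list, and just outside, RpL13A (303 nt) and Sec61beta (300 nt) had 3271 and 1946. The median density in the deep list was 174 P-sites per 100 nt for the 46 ORFs from 270 nt up to the limit and 117 for the 78 of 300 to 330 nt.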

How the data were processed

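Ribosome footprints of 28 to 34 nt from S2 cells were sequenced, 1 sample per condition. The submitters' processing notes name cutadapt 2.10, Bowtie2 2.4.1, STAR 2.7.5c and SAMtools 1.10; ORFs were called with RiboTaper on FlyBase Release 6 annotation, and read lengths were chosen for each list. The deposited lists hold whole-number counts made by the authors in a column without a name, which was read as P-sites per ORF; a common read number described for the lists cannot hold for the deep one. Members and gene lists were chosen with earlier results of these data known. Calls were grouped by genomic 3′ end, each end taking its highest count per list, and genes (17872 in the RefSeq table) were assigned by span without strand. One outer coordinate of an ORF may be off by 1 nt. Counts were scaled by longer ORFs common to all lists; shares have Wilson intervals, differences Newcombe's, single ratios Clopper-Pearson's and medians order-statistic intervals (Python 3.11.15, scipy 1.17.1). Scripts were tested on simulated lists. Named genes were those with most P-sites, the shortest, the largest ratios among ORFs of a single gene with 50 or more P-sites, those leading each gene group, those with differing starts and those next to the limit, except where stated. Sequences and protein lengths were not used here.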

Additional observations from a re-analysis of the deposited data

Results flagged for a closer look

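Tom7, the 162-nt ORF of the outer membrane translocase, had point values of the cycloheximide ratio of opposite sign with the 2 RNases. The counting interval of its E-RNaseI ratio, given above, includes no change, so the sign with E-RNaseI is uncertain. The log2 ratio with over without cycloheximide was 0.26 with E-RNaseI and -1.09 with A-RNaseI, a difference of 1.35. The difference between the RNases was not tested, since each condition had 1 sample. The A-RNaseI -CHX list, with 290 P-sites, was the one that lay apart.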

How the results depend on the processing

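Of 95 values recomputed under alternative settings, 85 stayed within the main interval or within 1.5 times the main count and 10 did not. The share of small ORFs without cycloheximide that were also found with it, 87.5% for the standard E-RNaseI pair, was 65.7% for the A-RNaseI pair and 58.1% with the deep list as the list without cycloheximide; the cause was not tested. The median density per 100 nt and 1000000 P-sites rose from 21.8 to 29.0 in E-RNaseI +CHX and from 8.18 to 17.3 in the deep list when only separate small ORFs were kept, a setting chosen after seeing the data. With a limit of 240 nt, shortened calls numbered 38 instead of 82 in A-RNaseI +CHX, 46 instead of 83 in E-RNaseI +CHX, 57 instead of 90 in A-RNaseI -CHX and 40 instead of 75 in E-RNaseI -CHX, since fewer calls pass a lower limit. Settings for missing calls were also chosen after seeing the data: with 50 or more expected P-sites A-RNaseI -CHX lacked 29.4% instead of 39.4% of separate small ORFs, and with the expectation from A-RNaseI, E-RNaseI +CHX lacked 6.19% instead of 13.7%. Counting any call that shares an exon base as present left 29.7%, 13.0%, 38.5% and 6.73% missing in A-RNaseI +CHX, E-RNaseI +CHX, A-RNaseI -CHX and E-RNaseI -CHX. Ratios of numbers and median P-site ratios for all 410 small ORFs moved by less than their intervals under every setting run; the settings for length, depth and P-sites were not run for separate small ORFs alone. The comparison with RefSeq protein lengths was not run, because no protein table was used here. The longest form over the 4 standard lists was not applied to shortened calls of the deep list. No analysis paired by sample was possible because each condition had 1 sample.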
